A study of Mus musculus with 12 samples.

Results

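The 48 genes described here encode lysosomal proteins: 7 cathepsins, 7 membrane and sterol-export proteins, 9 glycosidases, 9 other hydrolases with their activators, the regulator Tfeb, and 15 subunits and accessory proteins of the vacuolar proton pump (V-ATPase). They were taken by gene symbol from a table of 43472 genes measured by RNA-seq in whole preimplantation embryos of CD1 mice, an outbred stock, and all 48 were found. Zygotes had received an siRNA against Tdgf1, the gene of the Nodal co-receptor Cripto, or a negative control siRNA, in both cases together with GFP mRNA as a marker of injection. The 6 groups were morulae, early blastocysts and late blastocysts with Tdgf1 siRNA and the same 3 stages with control siRNA, each with 2 libraries (n = 2 per group, 4 per stage). No uninjected embryos were analysed here, and the number and age of embryos per library are not given in the sources used here.

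Lysosomes are acidic compartments in which proteins, glycans, lipids and nucleic acids brought in by endocytosis or autophagy are degraded. The V-ATPase pumps protons into the lumen, cathepsins and other hydrolases work at the resulting low pH, and membrane proteins such as Lamp1 line the organelle while the Npc proteins pass cholesterol out of it. In mammalian cells the transcription factor Tfeb raises many of these genes together by binding E-box-like sequences near their start sites, and preimplantation embryos use lysosomes to clear maternal proteins and organelles and, in the outer cells, material taken up from outside.

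Each library held 10524640 to 13770264 reads, and the upper limit for a gene with no read, 3 reads, was 0.218 to 0.285 CPM (reads of a gene per 1000000 reads of the library). Tdgf1 itself stood at 15.5 and 11.0 CPM in Tdgf1 siRNA morulae, against 29.4 and 23.4 CPM in control morulae, and at 49.5 and 70.8 CPM in Tdgf1 siRNA late blastocysts, against 97.3 and 84.6 CPM in control late blastocysts. The early blastocyst libraries labelled Tdgf1 siRNA had 9.27 and 15.2 CPM, against 21.7 and 13.1 CPM in early blastocyst controls, so the pair numbered 2 went against its labels. The early blastocyst libraries numbered 2 also stood apart in the summed level of 7 trophectoderm markers. It was 3429 and 1759 CPM in early blastocysts with Tdgf1 siRNA (replicates 1 and 2), against 3690.2 and 1652 CPM in controls. Over all morulae it was 541 to 776 CPM. The sum of primitive endoderm markers also split by number, but that of epiblast and pluripotency markers did not. Whether the libraries numbered 2 were earlier in stage was not tested. Nothing in the labels says that the libraries of a group came from separate embryos or injections, so p-values measure the spread between these libraries, which may be technical. Tdgf1 siRNA and control libraries of the same number deviated together in morulae and early blastocysts (correlations of 0.458 and 0.593). In late blastocysts they did so less (0.101). Stage tests counted all 4 libraries of a stage as independent, so their p-values may be too small. Fewer cells of a type and less RNA per cell cannot be told apart in whole-embryo libraries.

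The mean summed level of lysosomal transcripts was higher in blastocysts than in morulae, but single members moved in opposite directions. The summed level of the 48 genes was 10041 ± 536 CPM at morula, 11507 ± 619 CPM at early blastocyst and 13001 ± 221 CPM at late blastocyst (SD, 4 libraries per stage). Early blastocyst Tdgf1 siRNA replicate 1 (10604 CPM) lay below morula control replicate 2 (10728 CPM). Abundant members such as Cd63 weigh most in this sum. From morula to late blastocyst the cathepsin sum fell from 1913 ± 149 CPM to 1649 ± 87.5 CPM, while the sum of each other role group rose. A gene was tested where its mean reached 3.582 CPM, and 45 of the 48 did so. Of these, 25 (55.6%) were higher at late blastocyst than at morula and 9 (20%) were lower by limma with an adjusted p under 0.05. Among all 10751 genes tested, 36.6% were called higher and 24.3% lower, so the share of lysosomal genes that fell was near that of all genes. The median log2 difference was 0.40 over the 45 members and 0.13 over all genes. With TMM factors, which brought the median of all genes to 0.01, 21 members were higher and 10 lower with a median of 0.26. Over all 10751 genes, 3387 were higher and 3215 lower with these factors. Of the calls over all genes, 51.3% were higher, against 60.03% with the deposited scaling. With no regard to the test, all 4 late blastocyst libraries stood above all 4 morula libraries for 26 members (57.8%), against 35.3% of all genes, and below them for 9 (20%), against 23.5%. Fold values and log2 differences are on the scale of log2(deposited value + 1), which understates the change of low genes.

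**Figure D1:**
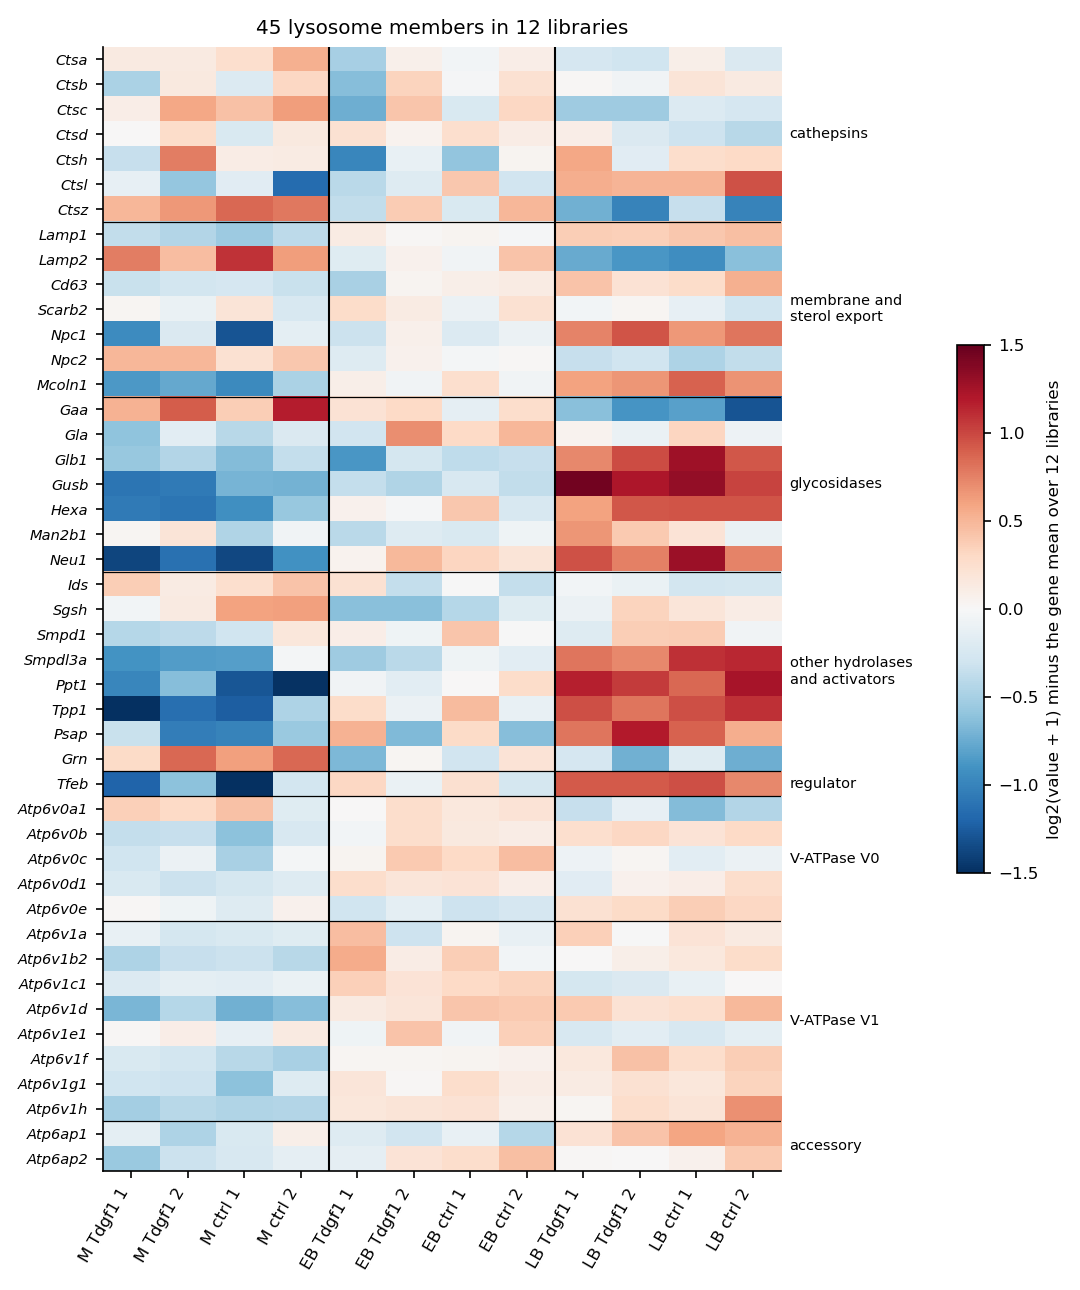
Levels of the 45 tested members (rows, grouped by role) in the 12 libraries (columns; M morula, EB early blastocyst, LB late blastocyst; Tdgf1 siRNA left of control, replicates 1 and 2), as log2(deposited value + 1) minus the gene's mean over the 12 libraries, with colours ending at ±1.5 (2 values lie past that limit). Glycosidases and other hydrolases such as Gusb, Neu1 and Ppt1 are blue at morula and red at late blastocyst, while Gaa, Lamp2, Ctsz and Grn run the other way.

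Members were called in both directions in both steps. At early blastocyst, 19 members (42.2%) were higher than at morula, against a background of 19.7% of all genes, and 6 (13.3%) were lower, against 14.0%. At late blastocyst, 19 (42.2%) were higher than at early blastocyst, against 27.0%, and 9 (20%) were lower, against 17.7%. The median log2 difference of the members was 0.35 in the first step and 0.13 in the second, beside 0.05 and 0.09 over all genes, and the second-step median was 0.04 with TMM factors. A group of 9 members rose in both steps (Lamp1, Mcoln1, Gusb, Hexa, Neu1, Ppt1, Tpp1, Tfeb and Atp6v1f), and 4 fell in both (Ctsz, Lamp2, Npc2 and Gaa). The share of all genes with either pattern was not computed, so these counts do not set the members apart from other genes. The second-step call of Atp6v1f was lost with TMM factors and that of Npc2 with quantile scaling. Sgsh fell in the first step and rose in the second, and Atp6v0c and Atp6v1c1 did the reverse. Ctsb, Ctsh, Scarb2 and Smpd1 passed the test in none of the 3 stage comparisons. Without morula control replicate 2, 3 members were called lower in the first step, and without late blastocyst control replicate 1, 5 were called lower in the second. Of the 25 members called in the first step, both early blastocyst libraries numbered 2 lay nearer the morula mean than both numbered 1 for 14, and both numbered 1 lay nearer for 2. The share over all genes was not computed. Early blastocyst replicates differed over the whole table, with a chi-square per gene of 41.1 (Tdgf1 siRNA) and 34.9 (control). That measure does not show which replicates lay nearer the morula mean. Whether the split by number is particular to lysosomal genes was not tested.

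**Figure D2:**
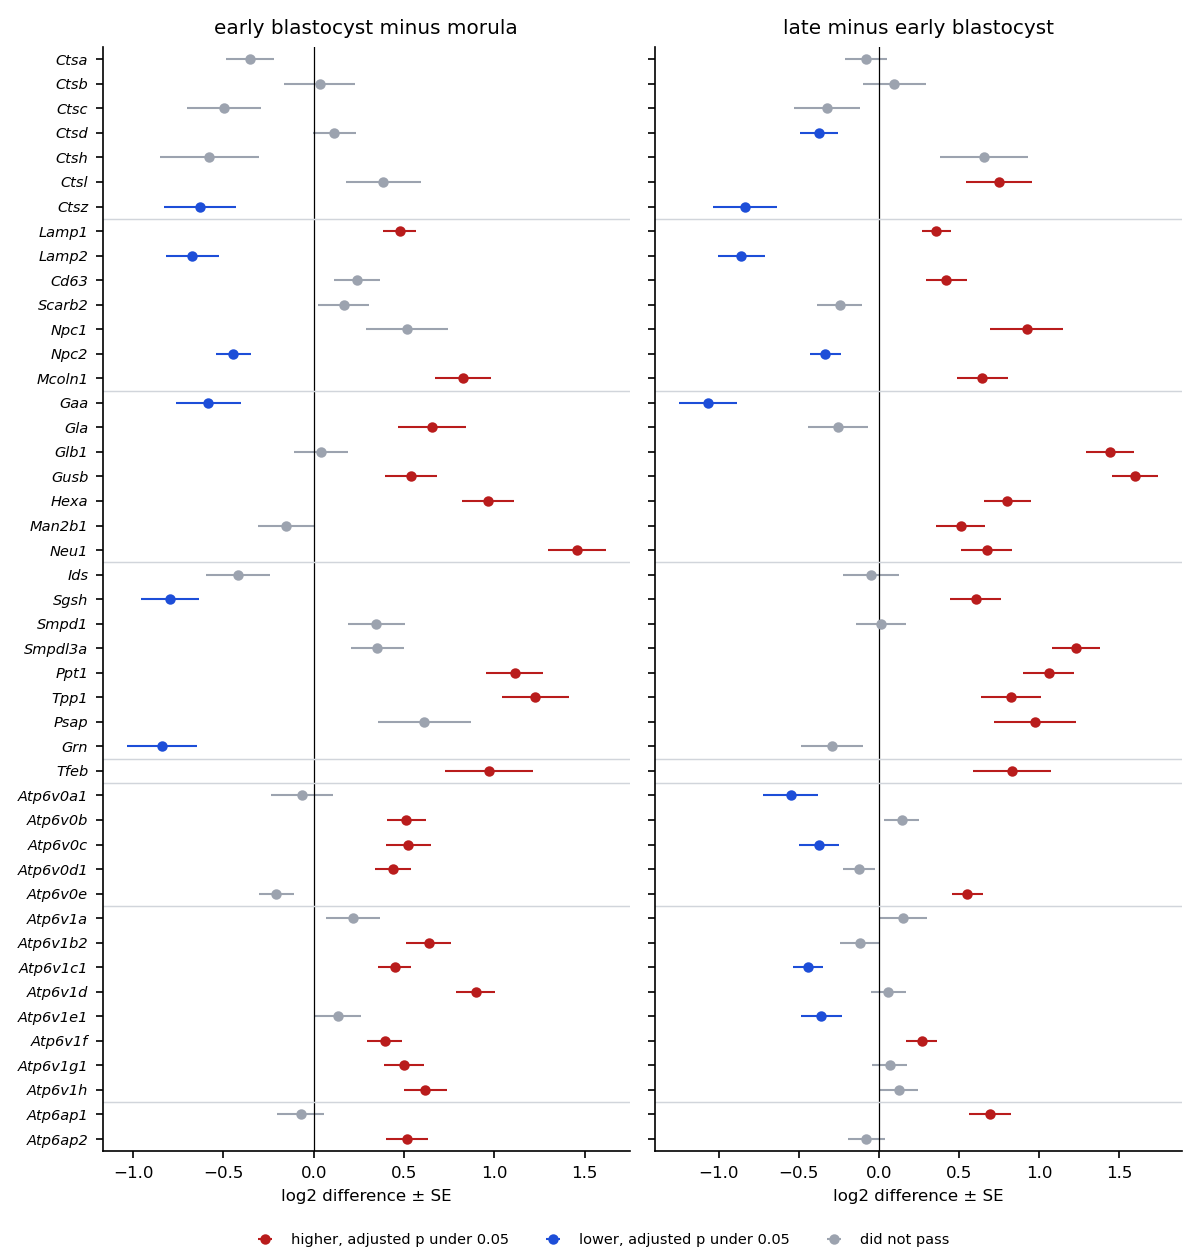
Log2 difference ± SE of each of the 45 tested members in early blastocysts minus morulae (left) and late minus early blastocysts (right), each stage with 4 libraries; red and blue points passed limma's test as higher or lower and grey points did not. Of the 15 V-ATPase genes in the lower rows, 10 are red on the left and 3 on the right, where 4 are blue.

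Tfeb, the transcription factor of lysosomal genes, rose in both steps. Its level was 20.7 and 32.9 CPM (Tdgf1 siRNA) and 14.9 and 42.6 CPM (control) at morula, 65.8 and 48.8 CPM (Tdgf1 siRNA) and 62.3 and 43.2 CPM (control) at early blastocyst, and 102 and 102 CPM (Tdgf1 siRNA) and 106 and 88.5 CPM (control) at late blastocyst. The late blastocyst libraries stood above all others, and the early blastocyst library with the least, control replicate 2, lay just above the highest morula library. Tfeb was 3.49-fold higher at late blastocyst than at morula, a log2 difference of 1.80 ± 0.24 (adjusted p = 2.42e-05). The first step was 0.97 ± 0.24 (adjusted p = 0.00784) and the second 0.83 ± 0.24 (adjusted p = 0.0133). The first step was 0.27 (adjusted p = 0.223) within libraries numbered 2 and 0.64 (adjusted p = 0.0255) without morula control replicate 1. The second was lost without late blastocyst control replicate 1 (0.77, adjusted p = 0.0538) and without the early blastocyst pair numbered 2 (0.61, adjusted p = 0.133).

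**Figure D3:**
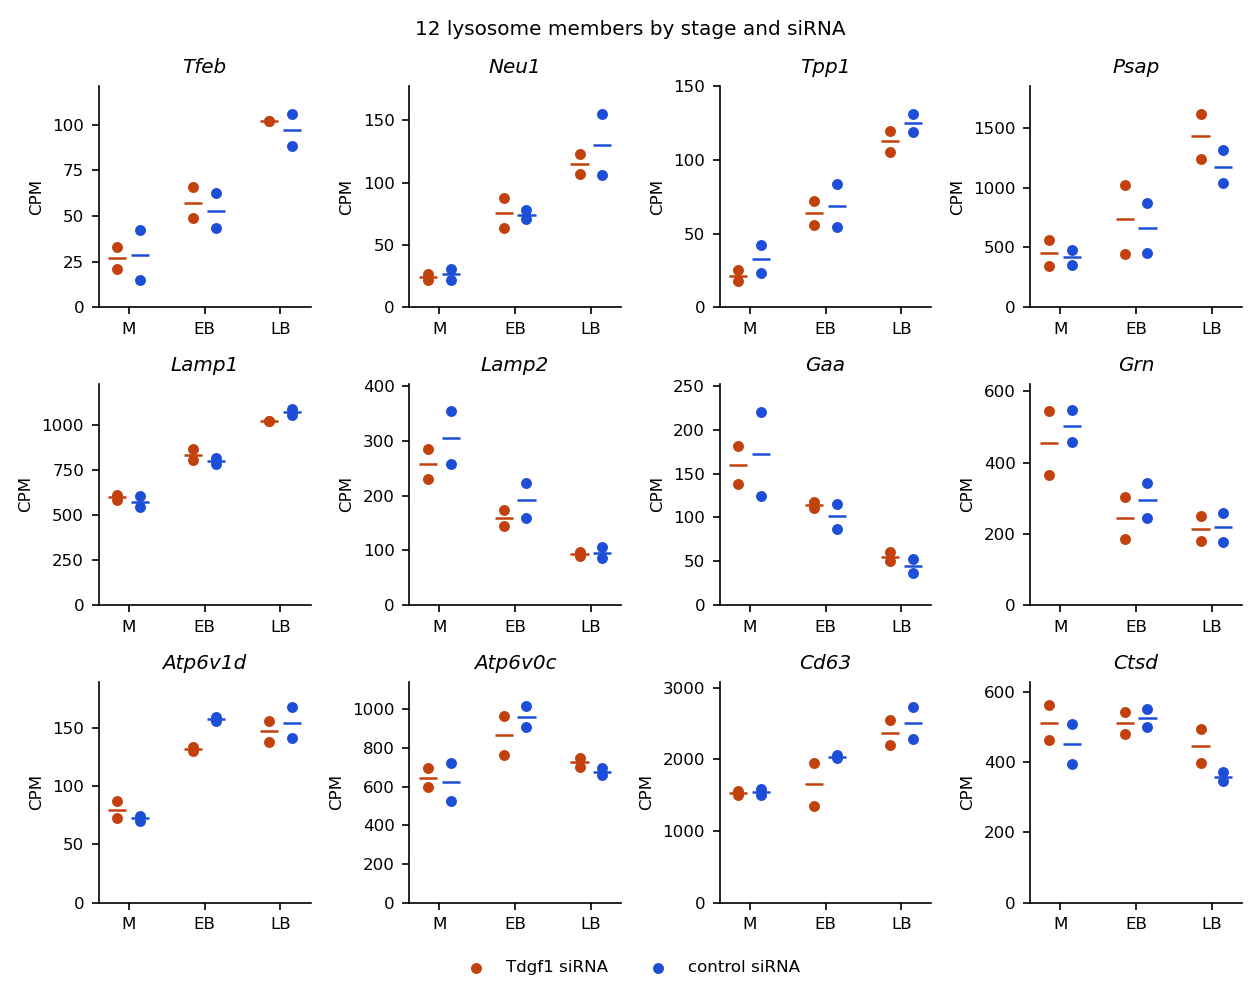
Level in CPM (linear axis from 0) of 12 members in every library at morula (M), early blastocyst (EB) and late blastocyst (LB), with Tdgf1 siRNA in red and control in blue; short lines are the means of 2 libraries. Tfeb, Neu1, Tpp1 and Lamp1 climb with stage in both arms, Lamp2, Gaa and Grn decline, and Atp6v0c is highest at early blastocyst.

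Tfeb protein binds a 10-letter palindrome, the CLEAR element, and shorter forms around CACGTG, and the start sites of the members were searched for them. RefSeq promoters on build GRCm38.p6, 250 bases before to 50 after each start, were matched by symbol for 40 of the 48 members. CACGTG, which reads the same on both strands, was present for 14 of the 40 (35.0%), beside 8.09% of 27025 genes and 12.5% of the 7830 tested genes with a promoter in that table. The longer forms GTCACGTG or CACGTGAC, which contain CACGTG and are each other's reverse complement, were present for 10 (25.0%), beside 2.55% of all and 5.33% of tested genes. The full CLEAR element was found for none of the 40, beside 0.370% of all and 0.907% of tested genes. Of the 14 members with CACGTG, 8 were higher at late blastocyst than at morula, 2 were lower, 3 were not called and 1 was not tested, and of the 26 without it, 12 were higher, 7 lower, 5 not called and 2 not tested. Both kinds of window stood before genes that rose and genes that fell. The 2 members with CACGTG that fell were Gaa, with CACGTG only, and Ctsa. At 1 of its starts Ctsa had GTCACGTG just before the start and CACGTGAC just after it, and its sequence is not printed. The 3 not called, Ctsd, Gla and Sgsh, each had a longer form, while Atp6v0e, Atp6v1a and Ctsl rose with CACGTG only. Below are the 250 bases before the start, 5′ to 3′ on the gene's strand, of 4 members that rose (Lamp1, Mcoln1, Glb1 and the V-ATPase gene Atp6v0b) and 1 that fell (Gaa), with CACGTG and its extensions in capitals. They lie at chr8:13158911-13159160 (+ strand), chr8:3500269-3500518 (+), chr9:114400828-114401077 (+), chr4:117887330-117887579 (- strand) and chr11:119267713-119267962 (+). CACGTG begins at positions -61, -45, -28 and -15 before the start of Lamp1, at -71 and -45 for Mcoln1, at -48 for Glb1, at -36 and -18 for Atp6v0b, and at -140 for Gaa.
Lamp1: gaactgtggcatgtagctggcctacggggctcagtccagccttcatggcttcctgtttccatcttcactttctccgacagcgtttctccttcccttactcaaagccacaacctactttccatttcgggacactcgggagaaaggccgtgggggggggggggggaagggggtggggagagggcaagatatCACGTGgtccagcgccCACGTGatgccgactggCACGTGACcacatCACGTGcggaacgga
Mcoln1: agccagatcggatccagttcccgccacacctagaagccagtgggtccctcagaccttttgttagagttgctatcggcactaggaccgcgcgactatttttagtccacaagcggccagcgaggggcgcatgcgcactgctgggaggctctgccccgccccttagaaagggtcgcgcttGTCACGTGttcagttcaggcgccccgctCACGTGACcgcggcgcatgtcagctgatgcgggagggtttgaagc
Glb1: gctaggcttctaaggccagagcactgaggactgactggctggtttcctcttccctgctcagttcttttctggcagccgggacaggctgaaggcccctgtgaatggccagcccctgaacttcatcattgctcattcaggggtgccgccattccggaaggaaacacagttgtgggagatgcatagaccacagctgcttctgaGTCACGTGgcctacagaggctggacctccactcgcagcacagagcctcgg
Atp6v0b: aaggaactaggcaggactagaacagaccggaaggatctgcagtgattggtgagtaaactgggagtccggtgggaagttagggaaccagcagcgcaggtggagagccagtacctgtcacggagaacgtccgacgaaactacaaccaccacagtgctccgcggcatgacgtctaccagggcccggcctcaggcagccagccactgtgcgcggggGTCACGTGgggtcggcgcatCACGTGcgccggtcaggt
Gaa: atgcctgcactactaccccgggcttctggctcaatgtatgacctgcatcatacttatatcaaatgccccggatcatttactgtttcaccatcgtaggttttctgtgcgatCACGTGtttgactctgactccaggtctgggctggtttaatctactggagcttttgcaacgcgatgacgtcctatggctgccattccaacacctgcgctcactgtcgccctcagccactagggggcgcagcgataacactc

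Most proton pump genes rose in the first step. Of the 15, 10 were higher at early blastocyst than at morula and none lower, beside 19.7% and 14.0% of all genes. The median log2 difference was 0.45, beside 0.05 over all genes. From early to late blastocyst 3 were higher and 4 lower, beside 27.0% and 17.7% of all genes, with a median of 0.06 (-0.03 after TMM scaling), beside 0.09 over all genes. Over the whole span 11 were higher and 1 lower with the deposited scaling, beside 36.6% and 24.3% of all genes. With TMM factors, which left out Atp6ap2, Atp6v0d1, Atp6v0e and Atp6v1a, 7 were higher and 1 lower. Beside these stood 3387 genes higher and 3215 lower among all 10751 with TMM factors. The other 30 tested members were called higher 9 times and lower 6 times in the first step and higher 16 times and lower 5 times in the second. The difference between the pump and the other members was not tested.

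In the V1 sector, which hydrolyses ATP on the cytosolic side, 6 of 8 genes were higher at late blastocyst than at morula, beside 36.6% of all genes. With TMM factors 5 of 8 were higher, beside 3387 of all 10751 genes. Atp6v1d, a subunit of the central rotor, moved most. Its level was 72.2 and 86.8 CPM (Tdgf1 siRNA) and 70.2 and 74.7 CPM (control) at morula, 129.9 and 134 CPM (Tdgf1 siRNA) and 159 and 156 CPM (control) at early blastocyst, and 156 and 138 CPM (Tdgf1 siRNA) and 141 and 167 CPM (control) at late blastocyst. All 8 blastocyst libraries stood above the 4 morula libraries, while early and late blastocysts overlapped, and the log2 difference of the first step was 0.90 ± 0.11 (adjusted p = 7.68e-05), or 1.86-fold. Atp6v1g1, a subunit of the peripheral stalk and the V1 gene with most RNA per length, had 276 and 274 CPM (Tdgf1 siRNA) and 220.3 and 297 CPM (control) at morula, 386 and 344 CPM (Tdgf1 siRNA) and 410.5 and 369 CPM (control) at early blastocyst, and 370.3 and 399 CPM (Tdgf1 siRNA) and 382 and 429 CPM (control) at late blastocyst. It too was higher in every blastocyst library than in every morula library, by 0.50 ± 0.11 (adjusted p = 0.00394) in the first step. Atp6v1b2, a subunit of the ATP-binding ring, rose by 0.64 in the first step (adjusted p = 0.00184), and Atp6v1h, a regulatory subunit, by 0.62 (adjusted p = 0.00168). Atp6v1f, a rotor subunit, rose by 0.39 and 0.27 in the first and second step (adjusted p = 0.00831 and 0.0416). Atp6v1a, the catalytic subunit of the ring, passed the test over the whole span only (0.37 ± 0.15 (adjusted p = 0.0452)).

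Atp6v1c1, which links V1 to the membrane sector, peaked at early blastocyst. It had 237 and 246 CPM (Tdgf1 siRNA) and 245 and 255 CPM (control) at morula, 351 and 315 CPM (Tdgf1 siRNA) and 338 and 344 CPM (control) at early blastocyst, and 227 and 234 CPM (Tdgf1 siRNA) and 253 and 276 CPM (control) at late blastocyst. The 4 early blastocyst libraries stood above all 8 others, and Atp6v1c1 rose by 0.45 ± 0.09 (adjusted p = 0.00241) in the first step and fell in the second, a log2 difference of -0.44 ± 0.09 (adjusted p = 0.00172). Atp6v1e1, a stalk subunit, fell in the second step (-0.36 ± 0.13 (adjusted p = 0.0362)). The calls of Atp6v1f and Atp6v1e1 in the second step and of Atp6v1a over the span were lost without any 1 of 9, 6 and 7 libraries, at adjusted p of up to 0.169 for Atp6v1f, 0.152 for Atp6v1e1 and 0.171 for Atp6v1a. Without the early blastocyst pair numbered 2, the second step of Atp6v1e1 was -0.14 (adjusted p = 0.395). With TMM factors the second step of Atp6v1f was 0.17 (adjusted p = 0.199), and with quantile scaling that of Atp6v1e1 was -0.24 (adjusted p = 0.119).

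The membrane sector V0 carries the protons. Atp6v0c, the ring-forming proteolipid, had 598 and 693 CPM (Tdgf1 siRNA) and 523 and 723 CPM (control) at morula, 760.1 and 966 CPM (Tdgf1 siRNA) and 907 and 1013 CPM (control) at early blastocyst, and 699 and 749 CPM (Tdgf1 siRNA) and 658 and 695 CPM (control) at late blastocyst. All early blastocyst libraries stood above all others, with a rise of 0.52 ± 0.12 (adjusted p = 0.00574) and a following fall, a log2 difference of -0.37 ± 0.12 (adjusted p = 0.0263). Atp6v0b, the second proteolipid, whose upstream sequence is printed above, averaged 285 ± 30.9 CPM at morula, 408 ± 35.9 CPM at early blastocyst and 449 ± 14.9 CPM at late blastocyst, and rose by 0.66 ± 0.11 (adjusted p = 1.63e-04) over the span. It shares 243 exonic bases with the antisense gene Gm12841, which reached 137 CPM, and without known strand reads of the pair cannot be told apart. Atp6v0d1, which joins the ring to the rotor, rose in the first step (0.44 ± 0.10 (adjusted p = 0.00458)), and its call over the span (0.32 ± 0.10 (adjusted p = 0.0144)) was lost without any 1 of 3 libraries (adjusted p of 0.0514 to 0.0663). Atp6v0e, a small subunit, rose in the second step (0.55 ± 0.10 (adjusted p = 5.53e-04)). Atp6v0a1, the large subunit of the proton path, fell in the second step.

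Atp6v0a1 had 22.4 and 21.3 CPM (Tdgf1 siRNA) and 23.9 and 14.3 CPM (control) at morula, 16.8 and 20.8 CPM (Tdgf1 siRNA) and 19.1 and 19.8 CPM (control) at early blastocyst, and 12.4 and 15 CPM (Tdgf1 siRNA) and 9.35 and 11.4 CPM (control) at late blastocyst. Every late blastocyst library was below every early blastocyst library, and 1 morula library, control replicate 2, lay among them. The second step was -0.55 ± 0.17 (adjusted p = 0.0188). That call was lost without early blastocyst Tdgf1 siRNA replicate 2 (-0.48, adjusted p = 0.0618), late blastocyst control replicate 1 (-0.50, adjusted p = 0.0717) or late blastocyst Tdgf1 siRNA replicate 1 (-0.50, adjusted p = 0.0668). The call of Atp6v0c in the second step was lost without any 1 of 6 early or late blastocyst libraries (adjusted p of 0.0507 to 0.0953) and with quantile scaling (-0.28, adjusted p = 0.0699). Of the accessory proteins, Atp6ap1, which helps to assemble the pump, rose in the second step (0.69 ± 0.13 (adjusted p = 8.37e-04)). Atp6ap2, the (pro)renin receptor, rose in the first (0.51 ± 0.12 (adjusted p = 0.00432)) with levels of 199 and 234 CPM (Tdgf1 siRNA) and 248 and 267 CPM (control) at morula, 268 and 341 CPM (Tdgf1 siRNA) and 354 and 402 CPM (control) at early blastocyst, and 297 and 296 CPM (Tdgf1 siRNA) and 307 and 386 CPM (control) at late blastocyst. Its blastocyst libraries ranged from just above the highest morula library upward.

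Glycosidases included several of the largest rises. Of the 7 tested, 4 were higher at late blastocyst than at morula and 1 was lower, beside 36.6% and 24.3% of all genes, with a median log2 difference of 1.48. Neu1, the lysosomal sialidase, had 21.6 and 26.4 CPM (Tdgf1 siRNA) and 21.6 and 31.1 CPM (control) at morula, 64 and 87.7 CPM (Tdgf1 siRNA) and 77.7 and 70.9 CPM (control) at early blastocyst, and 123 and 107 CPM (Tdgf1 siRNA) and 155 and 106 CPM (control) at late blastocyst. The 3 stages did not overlap, and Neu1 was 4.38-fold higher at late blastocyst than at morula, by 2.13 ± 0.16 (adjusted p = 1.60e-07), with 1.46 of this in the first step (adjusted p = 4.36e-05). Hexa, the alpha subunit of beta-hexosaminidase, had 45.2 and 44.1 CPM (Tdgf1 siRNA) and 49.9 and 64.99 CPM (control) at morula, 103 and 96.98 CPM (Tdgf1 siRNA) and 131 and 82.7 CPM (control) at early blastocyst, and 151 and 191 CPM (Tdgf1 siRNA) and 192 and 191 CPM (control) at late blastocyst. Its stages did not overlap either, with steps of 0.96 ± 0.15 (adjusted p = 3.42e-04) and 0.80 ± 0.15 (adjusted p = 6.93e-04).

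Gusb, beta-glucuronidase, and Glb1, beta-galactosidase, rose chiefly in the second step. Gusb had 8.71 and 9.06 CPM (Tdgf1 siRNA) and 12.7 and 12.5 CPM (control) at morula, 17.1 and 15.7 CPM (Tdgf1 siRNA) and 18.8 and 16.8 CPM (control) at early blastocyst, and 68.3 and 57.5 CPM (Tdgf1 siRNA) and 62.1 and 49.5 CPM (control) at late blastocyst. The late blastocyst libraries lay far above the rest, 3.03-fold over early blastocysts (1.60 ± 0.14 (adjusted p = 3.56e-06)), after a first step of 0.54 ± 0.14 (adjusted p = 0.011). Glb1 had 46.2 and 50.7 CPM (Tdgf1 siRNA) and 43.3 and 54.1 CPM (control) at morula, 36.7 and 57.7 CPM (Tdgf1 siRNA) and 53.3 and 54.3 CPM (control) at early blastocyst, and 118 and 141 CPM (Tdgf1 siRNA) and 175 and 138 CPM (control) at late blastocyst. Morula and early blastocyst libraries overlapped (0.04 ± 0.15 (adjusted p = 0.864)), and late blastocysts were 2.72-fold higher than early blastocysts (1.44 ± 0.15 (adjusted p = 9.47e-06)). Glb1 shares 165 exonic bases on the same strand with Tmppe, which reached 390 CPM, more than Glb1 itself in any library, so reads could have been divided between them.

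Gaa, the alpha-glucosidase that breaks down glycogen, moved the other way. It had 138 and 181 CPM (Tdgf1 siRNA) and 124 and 220.2 CPM (control) at morula, 111 and 118 CPM (Tdgf1 siRNA) and 86.7 and 115 CPM (control) at early blastocyst, and 60.7 and 49.95 CPM (Tdgf1 siRNA) and 52.4 and 36.7 CPM (control) at late blastocyst. The late blastocyst libraries were below all others, and Gaa was lower at late blastocyst by a log2 difference of -1.65 ± 0.18 (adjusted p = 3.85e-06) from morula and -1.07 ± 0.18 (adjusted p = 4.19e-04) from early blastocyst. The first step, -0.58 ± 0.18 (adjusted p = 0.0237), was lost without morula control replicate 2 (-0.38, adjusted p = 0.109), morula Tdgf1 siRNA replicate 2 (-0.49, adjusted p = 0.0898), early blastocyst control replicate 1 (-0.48, adjusted p = 0.0867) or early blastocyst Tdgf1 siRNA replicate 1 (-0.56, adjusted p = 0.0564). Gla, alpha-galactosidase A, rose in the first step (0.65 ± 0.19 (adjusted p = 0.017)), a call lost without either morula replicate 1 or early blastocyst Tdgf1 siRNA replicate 2 (adjusted p of 0.0568 to 0.0715). Man2b1, the alpha-mannosidase, had 28.04 and 31.9 CPM (Tdgf1 siRNA) and 19.04 and 26.3 CPM (control) at morula, 19.9 and 23.6 CPM (Tdgf1 siRNA) and 22.8 and 26.1 CPM (control) at early blastocyst, and 45.5 and 37.1 CPM (Tdgf1 siRNA) and 32.2 and 25.2 CPM (control) at late blastocyst. The late blastocyst libraries overlapped the range of both other stages, and Man2b1 rose in the second step only among the 3 comparisons (0.51 ± 0.15 (adjusted p = 0.0166)), a call lost without late blastocyst replicate 1 of control (adjusted p = 0.0774) or of Tdgf1 siRNA (adjusted p = 0.0691), and with quantile scaling (0.32, adjusted p = 0.119).

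Among the lipid, sulfate, peptide and thioester hydrolases with their activators, 4 of 8 tested genes were higher at late blastocyst than at morula and 2 were lower, beside 36.6% and 24.3% of all genes. Their median log2 difference was 0.97. Ppt1, the thioesterase that removes palmitate from proteins, had the largest rise of all members, 4.51-fold. Its level was 8.63 and 11.9 CPM (Tdgf1 siRNA) and 6.25 and 5.04 CPM (control) at morula, 19.5 and 17.99 CPM (Tdgf1 siRNA) and 20.6 and 25.4 CPM (control) at early blastocyst, and 50.4 and 46.1 CPM (Tdgf1 siRNA) and 40.2 and 52.8 CPM (control) at late blastocyst. The 3 stages did not overlap, and the log2 difference was 2.17 ± 0.16 (adjusted p = 1.23e-07) over the span, 1.11 of it in the first step (adjusted p = 2.25e-04) and 1.06 in the second (adjusted p = 1.63e-04). Ppt1 shares 129 exonic bases on opposite strands with Cap1, which reached 749 CPM. In Tdgf1 siRNA libraries alone, the first step was 0.70 (adjusted p = 0.0767).

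Tpp1, the tripeptidyl peptidase, had 18.03 and 24.99 CPM (Tdgf1 siRNA) and 23.1 and 42 CPM (control) at morula, 72.2 and 55.5 CPM (Tdgf1 siRNA) and 83.3 and 54.3 CPM (control) at early blastocyst, and 119 and 106 CPM (Tdgf1 siRNA) and 119 and 131 CPM (control) at late blastocyst. Its stages did not overlap, with a rise of 2.05 ± 0.19 (adjusted p = 7.76e-07) over the span and 1.23 ± 0.19 (adjusted p = 3.50e-04) in the first step. Smpdl3a, a phosphodiesterase related to acid sphingomyelinase, had 49.2 and 51.3 CPM (Tdgf1 siRNA) and 51.8 and 92.7 CPM (control) at morula, 64 and 70.3 CPM (Tdgf1 siRNA) and 89.9 and 84.02 CPM (control) at early blastocyst, and 167 and 158 CPM (Tdgf1 siRNA) and 206 and 211 CPM (control) at late blastocyst. Late blastocyst libraries stood above all others, 2.35-fold over early blastocysts (1.23 ± 0.15 (adjusted p = 3.01e-05)), while 1 morula library, control replicate 2, lay above all early blastocyst libraries. Smpd1, acid sphingomyelinase itself, averaged 200.2 ± 42.3 CPM at morula, 254 ± 40.8 CPM at early blastocyst and 258 ± 52.5 CPM at late blastocyst and passed no stage test.

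Psap, the precursor of the saposins that present lipids to hydrolases, had 562 and 343 CPM (Tdgf1 siRNA) and 354 and 480.1 CPM (control) at morula, 1019 and 448 CPM (Tdgf1 siRNA) and 868 and 455 CPM (control) at early blastocyst, and 1240.2 and 1617 CPM (Tdgf1 siRNA) and 1311 and 1036 CPM (control) at late blastocyst. The early blastocyst libraries split by replicate number, with both numbered 2 inside the morula range and both numbered 1 above it. Psap was 3.003-fold higher at late blastocyst than at morula (1.59 ± 0.26 (adjusted p = 1.25e-04)). The second step was 0.97 ± 0.26 (adjusted p = 0.00773) with all libraries and 0.45 (adjusted p = 0.108) without the early blastocyst pair numbered 2.

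Grn, progranulin, a secreted glycoprotein that is cut into granulins in lysosomes, fell. It had 365 and 545 CPM (Tdgf1 siRNA) and 458 and 546 CPM (control) at morula, 186 and 304 CPM (Tdgf1 siRNA) and 243 and 343 CPM (control) at early blastocyst, and 248.7 and 179 CPM (Tdgf1 siRNA) and 259 and 178 CPM (control) at late blastocyst. No blastocyst library reached the lowest morula library, Tdgf1 siRNA replicate 1, and the first step was -0.84 ± 0.19 (adjusted p = 0.00487) and the whole span -1.14 ± 0.19 (adjusted p = 1.89e-04). Ids and Sgsh remove sulfate from heparan sulfate and were the scarcest of the tested members per length. Sgsh had 3.19 and 4.03 CPM (Tdgf1 siRNA) and 6.999 and 7.03 CPM (control) at morula, 0.903 and 0.919 CPM (Tdgf1 siRNA) and 1.57 and 2.54 CPM (control) at early blastocyst, and 2.97 and 5.21 CPM (Tdgf1 siRNA) and 4.31 and 3.93 CPM (control) at late blastocyst. Early blastocyst libraries were the 4 lowest, with a fall in the first step, a log2 difference of -0.80 ± 0.16 (adjusted p = 0.00203), and a rise of 0.61 ± 0.16 (adjusted p = 0.00728) in the second. Its mean was close to the minimum for testing, and without any 1 of 4 libraries it was not tested. Its first step depended on the scale: it was -1.64 with a pseudocount of 0.1 deposited units and -1.91 by edgeR. Sgsh shares 955 exonic bases on opposite strands with Card14, which reached 8.55 CPM, more than Sgsh itself in any library. Without known strand their reads cannot be told apart. Ids passed over the whole span only (-0.47 ± 0.18 (adjusted p = 0.0343)), a call lost without any 1 of 6 libraries (adjusted p of 0.0646 to 0.103), and its value was -0.83 by edgeR and -0.75 with quantile scaling.

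Of the cathepsins, 1 of 7 was higher at late blastocyst than at morula and 3 were lower, beside 36.6% and 24.3% of all genes. Their median log2 difference was -0.26. Ctsl, a cysteine endopeptidase, was the one that rose, by 1.13 ± 0.21 (adjusted p = 3.29e-04) over the span, with 194 ± 58.9 CPM at morula, 251 ± 69.6 CPM at early blastocyst and 416 ± 67.2 CPM at late blastocyst. Its second step was 0.75 ± 0.21 (adjusted p = 0.00996), and 0.63 (adjusted p = 0.0587) without the early blastocyst pair numbered 2. Ctsz, a carboxypeptidase, fell most.

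Ctsz had 147 and 163 CPM (Tdgf1 siRNA) and 191 and 181 CPM (control) at morula, 78.8 and 135 CPM (Tdgf1 siRNA) and 87.6 and 147 CPM (control) at early blastocyst, and 61.2 and 49.9 CPM (Tdgf1 siRNA) and 80.5 and 49.8 CPM (control) at late blastocyst. The 4 morula libraries spanned a range above all but 1 early blastocyst library, and late blastocysts were lowest with 1 exception, where control replicate 1 exceeded early blastocyst Tdgf1 siRNA replicate 1. The log2 difference over the span was -1.47 ± 0.20 (adjusted p = 2.49e-05). The single steps were less certain: the first, -0.63 ± 0.20 (adjusted p = 0.0252), was lost without morula control replicate 1 or 2, morula Tdgf1 siRNA replicate 2, or either early blastocyst replicate 1 (adjusted p of 0.0528 to 0.108). Without the early blastocyst pair numbered 2 the first step was -1.0 (adjusted p = 0.00119) and the second -0.47 (adjusted p = 0.0602), against -0.83 ± 0.20 (adjusted p = 0.00398) with all libraries.

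Ctsc, the dipeptidyl peptidase that activates other proteases, was lower at late blastocyst than at morula. It had 344 and 483 CPM (Tdgf1 siRNA) and 438 and 496 CPM (control) at morula, 192 and 429 CPM (Tdgf1 siRNA) and 274 and 397 CPM (control) at early blastocyst, and 219.8 and 221 CPM (Tdgf1 siRNA) and 278 and 269 CPM (control) at late blastocyst. The late blastocyst libraries lay below all morula libraries, and early blastocyst libraries spread over both ranges, with a log2 difference over the span of -0.82 ± 0.20 (adjusted p = 0.00343) and no call in either step. Ctsa, which protects Neu1 and Glb1 in a complex, was also lower over the span (-0.43 ± 0.13 (adjusted p = 0.0113)), a call lost without control replicate 2 of morula (adjusted p = 0.051) or late blastocyst (adjusted p = 0.0565). Ctsd, the aspartic protease and the cathepsin with most RNA per length, had 461 and 561 CPM (Tdgf1 siRNA) and 394 and 509 CPM (control) at morula, 541 and 479 CPM (Tdgf1 siRNA) and 551 and 499 CPM (control) at early blastocyst, and 494 and 396 CPM (Tdgf1 siRNA) and 372 and 346 CPM (control) at late blastocyst. Its late blastocyst libraries reached from below the morula range into the early blastocyst range, with a second step of -0.37 ± 0.12 (adjusted p = 0.022). That call was lost without replicate 1 of either early blastocyst arm or replicate 2 of either late blastocyst arm (adjusted p of 0.0576 to 0.1005), and with quantile scaling (-0.27, adjusted p = 0.0920). Ctsb, a cysteine protease, and Ctsh, an aminopeptidase, had log2 differences over the span of 0.13 and 0.08 with adjusted p of 0.593 and 0.82. Ctsb shares 774 exonic bases on opposite strands with Fdft1, which reached 273 CPM. Ctsa shares 495 with Pltp, which reached 74.7 CPM. Ctsl shares 1742 exonic bases with the antisense gene Gm47123. Ctsd shares 808 on the same strand with Gm49369, and the levels of both partners were not analysed here.

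The 2 main glycoproteins of the lysosomal membrane moved in opposite directions. Lamp1 averaged 584 ± 31.7 CPM at morula, 814 ± 35.2 CPM at early blastocyst and 1045 ± 32.5 CPM at late blastocyst, with no overlap of stages and a rise of 0.84 ± 0.09 (adjusted p = 4.22e-06) over the span. Some of its exonic bases overlap Grtp1 on the opposite strand, which reached 172 CPM. Lamp2, its relative that also serves in chaperone-mediated autophagy, had 285 and 230.0 CPM (Tdgf1 siRNA) and 354 and 257 CPM (control) at morula, 145 and 173 CPM (Tdgf1 siRNA) and 159 and 224 CPM (control) at early blastocyst, and 96.6 and 88.6 CPM (Tdgf1 siRNA) and 85.4 and 106 CPM (control) at late blastocyst. Stages did not overlap for Lamp2 either, and its log2 difference was -1.53 ± 0.15 (adjusted p = 1.10e-06) over the span, -0.67 ± 0.15 (adjusted p = 0.0033) in the first step and -0.86 ± 0.15 (adjusted p = 4.16e-04) in the second. In libraries numbered 2 alone, the first step of Lamp2 was -0.30 (adjusted p = 0.0568).

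The cholesterol exporters split in the same way. Npc1, the membrane transporter, had 18.9 and 33.7 CPM (Tdgf1 siRNA) and 14.1 and 35.4 CPM (control) at morula, 31.01 and 41.9 CPM (Tdgf1 siRNA) and 33.98 and 37.1 CPM (control) at early blastocyst, and 68.95 and 79.7 CPM (Tdgf1 siRNA) and 64.4 and 72.04 CPM (control) at late blastocyst. Late blastocyst libraries stood above all others, with a second step of 0.92 ± 0.23 (adjusted p = 0.00508), while the first did not pass (0.51 ± 0.23 (adjusted p = 0.096)). Npc2, the soluble partner that hands cholesterol to Npc1, had 626 and 624 CPM (Tdgf1 siRNA) and 518 and 586 CPM (control) at morula, 385 and 461 CPM (Tdgf1 siRNA) and 430.4 and 447 CPM (control) at early blastocyst, and 347 and 357 CPM (Tdgf1 siRNA) and 318 and 339 CPM (control) at late blastocyst. Stages did not overlap, with log2 differences of -0.45 ± 0.10 (adjusted p = 0.00356) in the first step and -0.78 ± 0.10 (adjusted p = 1.25e-05) over the span. Its second step, -0.34 ± 0.10 (adjusted p = 0.0132), was lost without late blastocyst control replicate 1 (-0.31, adjusted p = 0.0522) and with quantile scaling (-0.22, adjusted p = 0.0692).

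Mcoln1, the calcium channel of the lysosomal membrane, averaged 12.1 ± 2.37 CPM at morula, 24.2 ± 2.88 CPM at early blastocyst and 39.8 ± 3.76 CPM at late blastocyst and rose by 1.47 ± 0.16 (adjusted p = 2.98e-06) over the span. Cd63, a tetraspanin of late endosomes and lysosomes, had the most RNA per length of all members. Its level was 1506 and 1558 CPM (Tdgf1 siRNA) and 1590.5 and 1502 CPM (control) at morula, 1348 and 1951 CPM (Tdgf1 siRNA) and 2011 and 2060.1 CPM (control) at early blastocyst, and 2547 and 2199 CPM (Tdgf1 siRNA) and 2286 and 2734 CPM (control) at late blastocyst. Every late blastocyst library stood above every other, with a second step of 0.42 ± 0.13 (adjusted p = 0.0166) that was lost without early blastocyst Tdgf1 siRNA replicate 1 (0.29, adjusted p = 0.0539), late blastocyst Tdgf1 siRNA replicate 1 (0.37, adjusted p = 0.0675) or late blastocyst control replicate 2 (0.36, adjusted p = 0.0701). That call was also lost with TMM factors (0.33, adjusted p = 0.104), edgeR (adjusted p = 0.111) and DESeq2 (adjusted p = 0.0861). The Cd63 pseudogene Cd63-ps reached 0.690 CPM. Scarb2, which carries beta-glucocerebrosidase to lysosomes, had a log2 difference of -0.08 over the span (adjusted p = 0.651).

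Idua, alpha-L-iduronidase, Naglu, an N-acetylglucosaminidase, and Lipa, the acid lipase, were too low to be tested. Idua averaged 2.57 ± 0.399 CPM at morula, 1.38 ± 0.404 CPM at early blastocyst and 3.15 ± 0.543 CPM at late blastocyst. Naglu averaged 0.772 ± 0.474 CPM at morula, 2.39 ± 1.004 CPM at early blastocyst and 2.33 ± 0.764 CPM at late blastocyst. Lipa stayed at or below the level of 3 reads in 7 of 8 libraries of the first 2 stages, and had 1.57 and 0.794 CPM in Tdgf1 siRNA late blastocysts, against 1.56 and 0.463 CPM in control late blastocysts.

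Levels of different genes were compared per kilobase of the longest principal transcript (CPM per kb). Cd63 came first with 1750.2 CPM per kb averaged over the 12 libraries, followed by the proteolipids Atp6v0c (633 CPM per kb) and Atp6v0b (381 CPM per kb), Lamp1 (365 CPM per kb) and Psap (305 CPM per kb). Within roles, Atp6v1g1 led the V1 sector (305 CPM per kb), Ctsd the cathepsins (219.5 CPM per kb), Atp6ap2 the accessory proteins (129 CPM per kb) and Hexa the glycosidases (56.05 CPM per kb). Gusb and Ppt1, which had the largest fold rises of the tested members over the span, ranked 37 and 38 of the 48 by this measure. They had 22.1 and 19.9 CPM per kb at late blastocyst, while Tfeb had 43.4 CPM per kb. The pump subunits, which work in fixed numbers in 1 complex, ranged from 4.30 CPM per kb for Atp6v0a1, 1 of several genes for its subunit, to 633 CPM per kb for Atp6v0c.

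**Figure D4:**
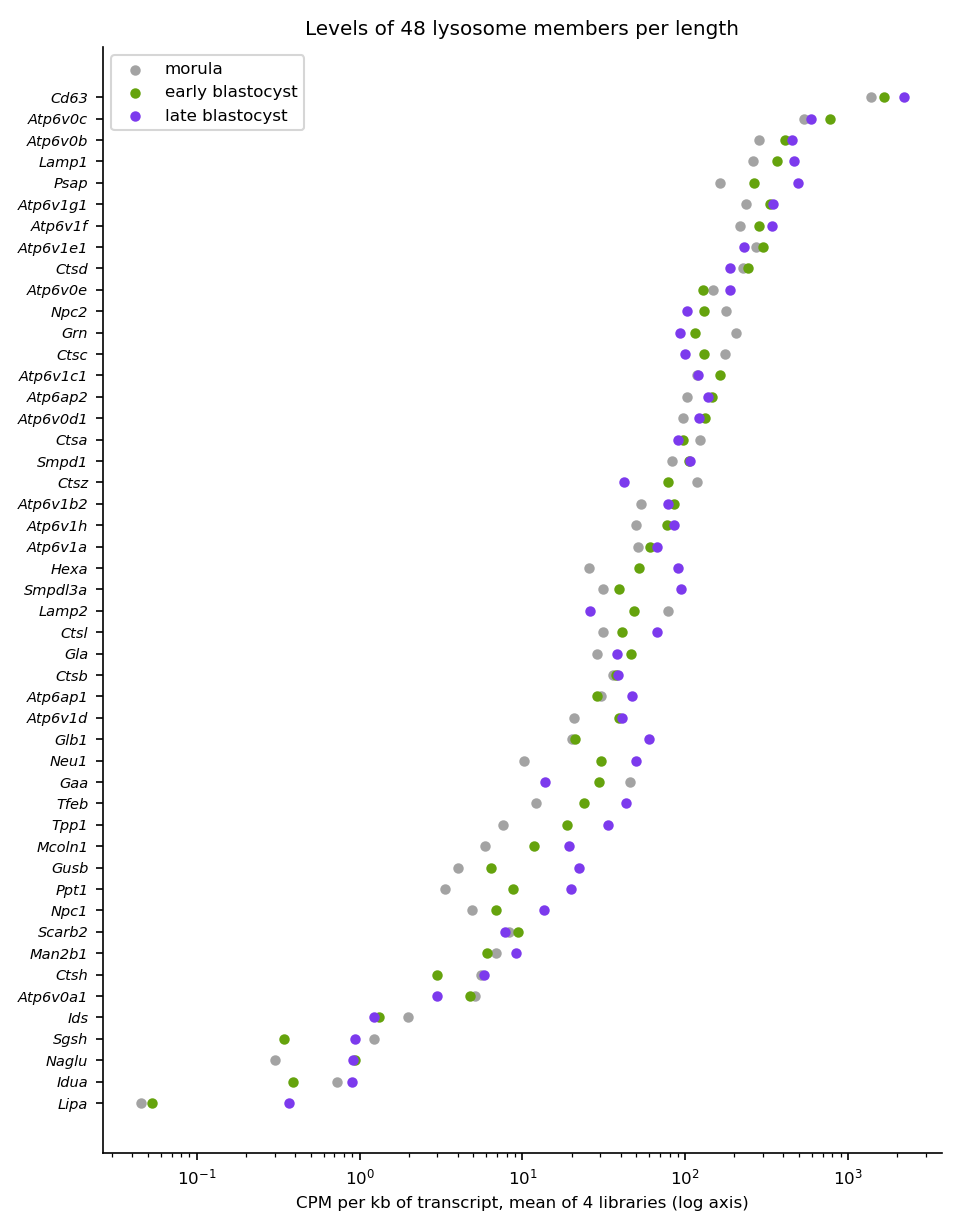
Mean level of all 48 members per kilobase of transcript (log axis) at morula (grey), early blastocyst (green) and late blastocyst (violet), 4 libraries per stage, ordered by the mean over stages. Cd63 stands at the top with 1388 CPM per kb or more at every stage, and Lipa at the bottom with 0.369 CPM per kb or less.

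Lists of other lysosomal genes gave mixed counts over the span from morula to late blastocyst. Of 23 other lysosomal hydrolases tested, 14 were higher and 2 lower, with a median log2 difference of 0.69. Ppt2, the relative of Ppt1, fell, a log2 difference of -3.50 ± 0.28 (adjusted p = 2.80e-07), with 227 ± 16.05 CPM at morula, 63.7 ± 34.7 CPM at early blastocyst and 16.9 ± 3.45 CPM at late blastocyst. Of 10 other V-ATPase subunits and assembly factors, 7 were higher and 2 lower (median 0.60), among them Tmem9 (1.41) and Dmxl2 (1.35). Of 17 genes of the TFE family and of mTORC1 at the lysosome, 9 were higher and 4 lower (median 0.46), with Rraga, a small GTPase that recruits mTORC1, at 1.64 and Zkscan3, a repressor of lysosomal genes, at 1.12. Of 17 other membrane proteins and transporters, 5 were higher and 4 lower (median 0.00), among them the cystine exporter Ctns (1.60) and Laptm4b (1.47). Of 19 genes for sorting to the lysosome, 5 were higher and 3 lower (median 0.06), led by the adaptor subunits Ap1m1 (1.37) and Ap3b1 (1.31). Of 20 autophagy genes, 4 were higher and 11 lower (median -0.53), with the receptor Optn at 2.41 and Atg14, a subunit of the kinase complex that starts autophagosomes, at -2.39. These shares stand beside 36.6% higher and 24.3% lower over all genes.

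Summed levels of cell-type markers moved with the same stages, but single markers of a list could go against its sum. The summed level of 7 trophectoderm markers was 541 to 776 CPM at morula, 1652 to 3690.2 CPM at early blastocyst and 5293 to 7559 CPM at late blastocyst. The 6 epiblast and pluripotency markers summed to 691 to 994 CPM, 775 to 906 CPM and 245 to 313 CPM at the same stages, and the 7 primitive endoderm markers to 772 to 795 CPM, 714 to 937 CPM and 1019 to 1192 CPM. Krt8 and Krt18 made up most of the trophectoderm sum in blastocysts, with 2585 and 4198 of 7559 CPM in late blastocyst control replicate 2. From morula to late blastocyst, Tfap2c fell from 140 to 166 CPM to 80.3 to 116 CPM. Gata6 fell from 378 to 456 CPM to 175 to 284 CPM. Sox2 rose from 1.90 to 2.65 CPM to 6.17 to 14.8 CPM. Markers of cells outside the embryo had low sums: macrophage and blood markers, 8 of 9 of which were in the table, summed to 21.8 to 56.6 CPM, 9 cumulus and granulosa markers to 3.67 to 23.2 CPM, and 6 oviduct and uterus markers, 1 of them at 0 in every library, to 0.579 to 3.62 CPM. Single markers made up most of 2 of these sums. Csf1r had 9.66 to 22.1 CPM over all libraries, Cd74 1.16 to 39.1 CPM, and the granulosa marker Amhr2 3.58 to 23.2 CPM. Laptm5 rose from 0.0863 to 0.747 CPM at morula to 8.64 to 21.3 CPM at late blastocyst. The part of changing cell types in the lysosomal differences was not tested.

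Tdgf1 siRNA moved no lysosomal gene past the test. At each of the 3 stages, for the mean over stages and for the difference of the siRNA effect between stages, 0 of the 45 members were called by limma, edgeR or DESeq2 where run, and the background over all 10751 genes in limma was 0.0%. At an unadjusted p under 0.05, limma picked 2 morula, 0 early blastocyst and 1 late blastocyst differences among the members, and 4 for the mean over stages. These were 4.44%, 0.0%, 2.22% and 8.89% of the 45 members, beside 1.8%, 1.04%, 2.06% and 2.49% of all genes. The count by edgeR was 5, 1, 0 and 3 (11.1%, 2.22%, 0.0% and 6.67%), beside 2.46%, 1.34%, 2.06% and 2.83% of all genes. By DESeq2 it was 4, 1, 0 and 3 (8.89%, 2.22%, 0.0% and 6.67%), beside 2.66%, 1.44%, 2.06% and 3.04%. DESeq2 called 1 gene (0.0093%) at late blastocyst, which is not a member. With same-numbered libraries of a stage as pairs, limma picked 6, 4, 5 and 12 members at an unadjusted p under 0.05. These were 13.3%, 8.89%, 11.1% and 26.7% of the members, beside 6.17%, 4.57%, 6.48% and 8.52% of all genes. That paired fit called 0 members. Over all genes it called 5 genes (0.0465%) for morulae, 5 (0.0465%) for early blastocysts and 3 (0.0279%) for late blastocysts. It called 0 for the mean over stages. The 95% interval of the mean siRNA difference lay within 1 log2 unit either way for all 45 members, with extremes of -0.64 and 0.61. At single stages it did so for 42 members at morula and for 44 at either blastocyst stage. These intervals come from 2 libraries per group and do not show that the arms were alike.

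The lowest unadjusted p for the mean over stages belonged to Smpdl3a. It had 49.2 and 51.3 CPM in Tdgf1 siRNA morulae, against 51.8 and 92.7 CPM in control morulae. At the next stage it had 64 and 70.3 CPM in early blastocyst libraries labelled Tdgf1 siRNA, against 89.9 and 84.02 CPM in those labelled control, and then 167 and 158 CPM in Tdgf1 siRNA late blastocysts, against 206 and 211 CPM in control late blastocysts. The arms did not overlap at any stage, and the mean difference was -0.38 ± 0.12 (unadjusted p = 0.00695, adjusted p = 1.0), with a 95% interval of -0.64 to -0.12. Atp6ap2 (-0.26 ± 0.09 (unadjusted p = 0.0163, adjusted p = 1.0)) and Sgsh (-0.30 ± 0.13 (unadjusted p = 0.0358, adjusted p = 1.0)) followed. Smpdl3a, Atp6ap2 and Ctsa were lower with Tdgf1 siRNA in all 6 same-numbered pairs, 3 of 45 members (6.67%) beside 1.79% of all genes, and no member was higher in all 6, beside 3.23% of all genes. Early blastocyst pair 2, whose Tdgf1 level went against its labels, is among those 6 pairs.

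At morula the lowest unadjusted p were those of Ppt1, 0.58 ± 0.22 (unadjusted p = 0.0218, adjusted p = 1.0), and Sgsh, -0.56 ± 0.22 (unadjusted p = 0.0258, adjusted p = 1.0). Ppt1 had 8.63 and 11.9 CPM in Tdgf1 siRNA morulae, against 6.25 and 5.04 CPM in control morulae, without overlap, and its difference at early blastocyst was -0.25 and at late blastocyst 0.06. Sgsh had 3.19 and 4.03 CPM in Tdgf1 siRNA morulae, against 6.999 and 7.03 CPM in control morulae, also without overlap. Smpdl3a was the third at morula (-0.44 ± 0.21 (unadjusted p = 0.0538, adjusted p = 1.0)) and the third at early blastocyst (-0.36 ± 0.21 (unadjusted p = 0.111, adjusted p = 1.0)). At early blastocyst, Atp6ap2 came first (-0.32 ± 0.16 (unadjusted p = 0.076, adjusted p = 1.0)) and Cd63 next (-0.33 ± 0.18 (unadjusted p = 0.0918, adjusted p = 1.0)), with 1348 and 1951 CPM in early blastocyst libraries labelled Tdgf1 siRNA, against 2011 and 2060.1 CPM in those labelled control, without overlap.

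At late blastocyst Man2b1 came first (0.48 ± 0.22 (unadjusted p = 0.0479, adjusted p = 1.0)). It had 45.5 and 37.1 CPM in Tdgf1 siRNA late blastocysts, against 32.2 and 25.2 CPM in control late blastocysts, without overlap. Ctsd (0.30 ± 0.17 (unadjusted p = 0.0993, adjusted p = 1.0)) had 494 and 396 CPM in Tdgf1 siRNA late blastocysts, against 372 and 346 CPM in control late blastocysts, without overlap. Atp6v1h (-0.29 ± 0.17 (unadjusted p = 0.11, adjusted p = 1.0)) had 144 and 169 CPM in Tdgf1 siRNA late blastocysts, against 161 and 228 CPM in control late blastocysts, with overlap. The difference of the siRNA effect between stages gave a smallest unadjusted p of 0.0602 over the members and no call. At an unadjusted p under 0.05 it picked 0 members by limma, 1 by edgeR and 3 by limma with pairs. These were 0.0%, 2.22% and 6.67% of the members, beside 0.902%, 1.27% and 4.42% of all genes. The paired fit called 1 gene (0.0093%), not a member.

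**Figure D5:**
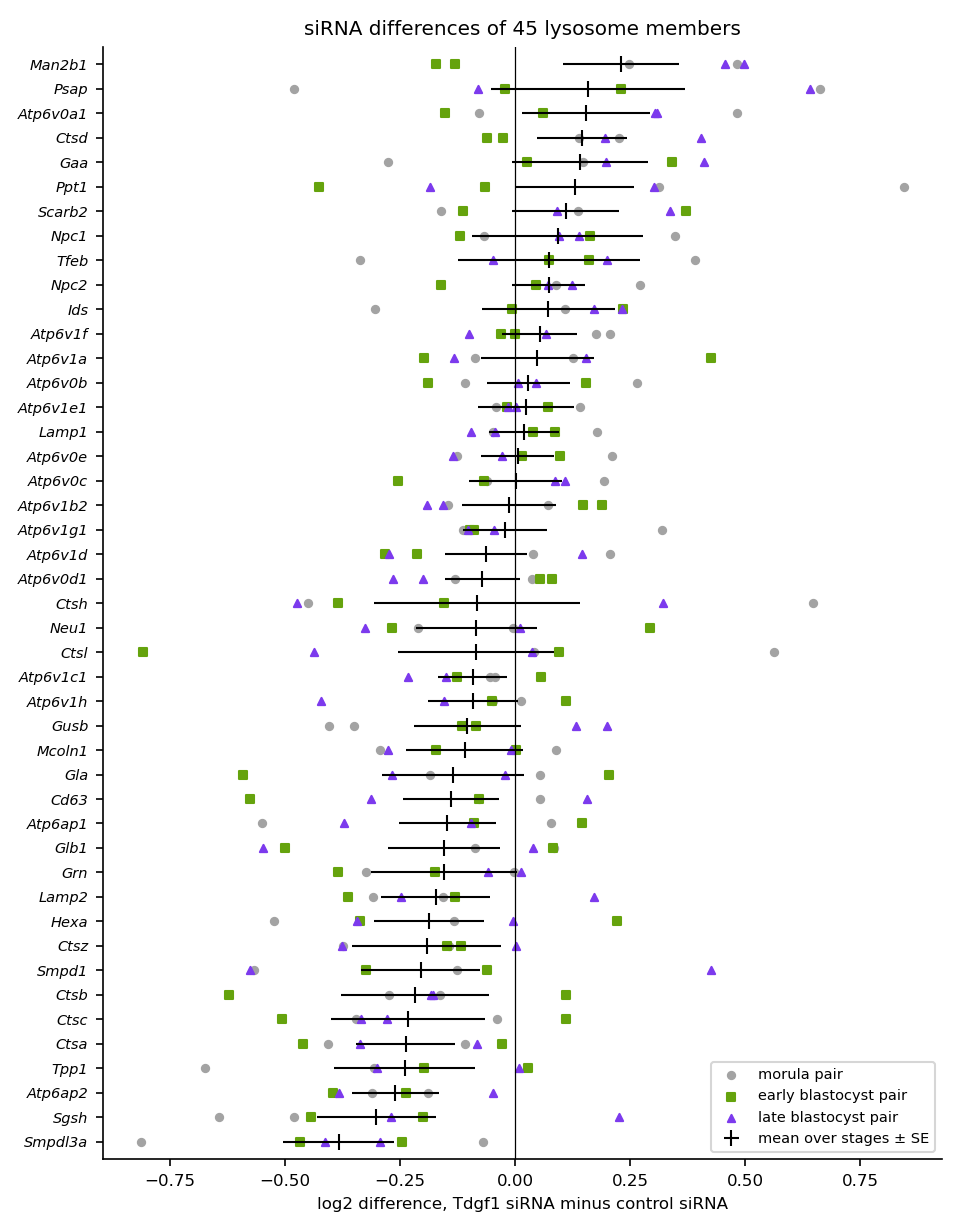
Log2 difference of Tdgf1 siRNA minus control siRNA for each of 45 members in the 6 same-numbered pairs (grey circles morula, green squares early blastocyst, violet triangles late blastocyst) and its mean over stages ± SE (black), ordered by the mean. The means run from Smpdl3a at -0.38 to Man2b1 at 0.23, and the pairs of most members lie on both sides of 0.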

How the data were processed

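Per the labels' protocols, Clontech's SMARTer low-input kit and NEB's NEBNext Ultra kit gave the RNA-seq libraries, and strand is not stated. The submitters' processing notes name HISAT2 2.1.0, Cufflinks, HTSeq, edgeR and mm10, but not the part each played. The authors deposited 1 table headed RPKM for 12 libraries, but every column sums to 279173.646 and 100.0% of values are whole multiples, within 0.01 reads, of 1 step per library, whatever the gene's length. The deposited values are therefore CPM divided by 3.582, and were multiplied by that constant for levels. The planned test for RPKM suits CPM and was kept.

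limma 3.58.1 (lmFit, eBayes with trend, R 4.3.3) was fitted on log2(deposited value + 1), a pseudocount of 3.582 CPM, over the 10751 genes whose mean reached 1 deposited unit. The fit had 6 group means, 6 residual and 7.55 prior degrees of freedom, and Benjamini-Hochberg adjustment over all genes at 0.05. Stage differences averaged both siRNA arms. The 48 members, the lists and the rule for named genes (the 6 largest called members each way per stage comparison, the 3 lowest p per siRNA comparison, Tfeb, the member with most RNA per length in each role, and the 2 largest called genes of each other list, of which 1 is not reported here) were chosen with earlier results of these data known. edgeR 4.0.16 and DESeq2 1.42.0 on the recovered reads, other scalings, filters and pseudocounts, single arms or numbers, and each library left out were alternatives. The fit was tested on simulated data.

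Deviations of same-numbered Tdgf1 siRNA and control libraries correlated at 0.458, 0.593 and 0.101 at morula, early and late blastocyst, so numbers were taken to pair arms within a stage, although no label names a shared day. Stages correlated at 0.006 to 0.138 and were not paired. Replicates differed beyond read sampling, with a chi-square of 17.0 to 41.1 per gene. The limit of 3 reads covers counting error only, since amplified reads are not independent molecules. The 95% intervals come from limma and measure the spread between libraries. Transcript lengths and overlaps came from GENCODE release M21 and promoters from RefSeq (GRCm38.p6). Python 3.11.15, pandas 2.3.3 and matplotlib 3.10.9 were used.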

Additional observations from a re-analysis of the deposited data

How the results depend on the processing

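No member called in a stage comparison changed sign under any alternative, and 0 members were called for the siRNA at any stage, on average or between stages under every alternative run. The number of members higher at early blastocyst than at morula, 19 with all libraries, was 12 in control libraries alone and 8 in Tdgf1 siRNA libraries alone, and 18 to 21 with 1 library left out. The number lower, 6, was 3 with no filter on low genes, 2 in controls alone and 3 in Tdgf1 siRNA libraries alone, and 3 to 8 with 1 library left out. From early to late blastocyst, 19 were higher, and 10 in controls alone, 12 in Tdgf1 siRNA libraries alone and 15 to 19 with 1 library left out. Of that step, 9 were lower, and 4 in either arm alone, 5 without the early blastocyst pair numbered 2 (an alternative chosen after seeing the data) and 5 to 10 with 1 library left out. Single arms hold fewer libraries, and a library left alone in its group is assumed to vary like the other groups. Over all genes, calls in single arms fell too. In the first step, 2114 were higher and 1509 lower with all libraries. These became 960 and 634 in controls alone and 798 and 591 in Tdgf1 siRNA libraries alone. In the second, 2901 and 1902 became 1724 and 1120 in controls and 1399 and 771 in Tdgf1 siRNA libraries. Over the whole span, 20 to 28 were higher and 6 to 11 lower under all alternatives. Over all genes, higher calls over the span ran from 2481 of 6954 (filter at a mean of 5 deposited units) to 5116 of 32486 (no filter). Lower calls ran from 1634 of 10731 (Tdgf1 siRNA libraries alone) to 3551 of 10751 (quantile scaling). With the replicate number as a block, 20 members were higher and 8 lower in the first step, 19 and 9 in the second and 25 and 9 over the span, and all 25, 28 and 34 members called without the block were called again. The same counts over all 10751 genes were 2267 and 1630, 3047 and 2025, and 4036 and 2690. That block takes up only what a number shares over the stages, where correlations were 0.006 to 0.138. It therefore cannot account for same-numbered libraries deviating together within a stage. No stage fit with such pairs as the unit was run, so the stage p-values may be too small by an amount that was not tested. With pairs of stage and number as the block, the siRNA call count was 0, with a lowest adjusted p of 0.201, for Smpdl3a over stages. The median of all genes in late blastocyst minus morula was -0.07 with quantile scaling and 0.01 with TMM factors, against 0.13 as deposited, and 46.6% and 51.3% of calls over all genes were higher, against 60.03%. The same shares were 50.7%, 52.8% and 58.3% in the first step and 46.8%, 51.7% and 60.4% in the second. The promoter share of 35.0% for CACGTG was 25.0% for the 8-letter forms and 0 for the full 10-letter element. With no filter, 1333 of all genes were higher in the first step, against 2114 with the filter, and 6 were higher and 5 lower with Tdgf1 siRNA at late blastocyst, none of them members, against 0. With 2 libraries per group, a call near the threshold rests on single libraries.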
